A study of Mus musculus with 12 samples.

Results

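The genes described here make peptides for MHC class I molecules and carry them to the cell surface. They were listed by symbol, with no threshold on their values but with earlier results of these data known: Psmb8, Psmb9, Psmb10, Tap1, Tap2, Tapbp, B2m, Nlrc5, H2-K1 and H2-D1. Of these 10, 9 were measured, out of 19505 genes in all, each by 1 probe set, and Nlrc5 is not analysed here. All 9 lay above the brightest background probe on all 12 arrays.

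The samples were RAW 264.7 cells, a mouse macrophage-like tumour line, and RNA was read on 1-colour Affymetrix arrays. Every group received LPS, a bacterial cell wall product that activates macrophages, at 500 ng/mL, and was incubated for 6 h. The 4 groups of 3 arrays were LPS alone, LPS with TsSP at 50 µg/mL (TsSP+LPS), LPS with the plant fibre inulin at 500 µg/mL (Inulin+LPS), and LPS with both (Inulin+TsSP+LPS). The labels do not spell out TsSP, and the series describes the agents added as helminth products. No array came from unstimulated cells, so every comparison is between LPS-treated cultures, and what LPS itself did was not measured. Whether arrays of the same group stand for separately grown cultures is not stated in the labels, so p-values measure only the spread between arrays, which may be technical.

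As background, the proteasome cuts cytosolic proteins into peptides. In interferon-exposed cells and in leukocytes, Psmb8, Psmb9 and Psmb10 replace the catalytic subunits Psmb5, Psmb6 and Psmb7 and form the immunoproteasome. The transporter made of Tap1 and Tap2 moves the peptides into the endoplasmic reticulum, where tapasin, the product of Tapbp, holds the class I molecule beside the transporter until a peptide binds. The class I molecule pairs a heavy chain, such as H2-K1 or H2-D1, with the light chain beta-2 microglobulin, the product of B2m. Nlrc5 is the activator of class I transcription, and the factors IRF1 and NF-kB also act on these genes.

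The members lie close together in the genome: 7 of the 10 listed genes are on chromosome 17, inside the MHC or at its edge, 2 are on chromosome 8 (Psmb10 and Nlrc5) and B2m is on chromosome 2. Psmb9, Tap1, Psmb8 and Tap2 are neighbours, with the class II genes H2-DMb1 and H2-Ob on either side. Start regions are shown for the pair of genes that share one, Tap1 and Psmb9, and for the 3 genes of the class I molecule itself. These sets were chosen because their levels with TsSP differed, as given after the sequences. Each runs 5′ to 3′ on its gene's strand from 250 bases before to 50 bases after the start in RefSeq, build GRCm38.p6. Capitals mark any match, on either strand, to 5 short motifs: an interferon response element core (GAAA, any 2 bases, GAAA), a STAT site core (TTC, any 3 bases, GAA), an NF-kB core (GGG, any 5 bases, CC), a Y box core (ATTGG) and an X2 box or CRE part (TGACG). Matches to different motifs may overlap.

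Tap1: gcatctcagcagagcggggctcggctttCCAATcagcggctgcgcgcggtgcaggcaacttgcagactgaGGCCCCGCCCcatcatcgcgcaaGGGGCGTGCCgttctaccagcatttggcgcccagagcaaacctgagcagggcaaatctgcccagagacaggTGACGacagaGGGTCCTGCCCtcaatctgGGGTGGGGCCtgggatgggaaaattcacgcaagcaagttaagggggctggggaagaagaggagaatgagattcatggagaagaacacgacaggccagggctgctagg
B2m: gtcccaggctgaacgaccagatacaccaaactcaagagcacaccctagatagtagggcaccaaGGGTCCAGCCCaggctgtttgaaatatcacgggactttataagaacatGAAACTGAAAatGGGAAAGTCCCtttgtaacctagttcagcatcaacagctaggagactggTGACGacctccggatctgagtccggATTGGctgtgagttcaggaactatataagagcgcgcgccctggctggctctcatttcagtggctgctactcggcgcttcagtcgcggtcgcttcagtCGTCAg
H2-K1: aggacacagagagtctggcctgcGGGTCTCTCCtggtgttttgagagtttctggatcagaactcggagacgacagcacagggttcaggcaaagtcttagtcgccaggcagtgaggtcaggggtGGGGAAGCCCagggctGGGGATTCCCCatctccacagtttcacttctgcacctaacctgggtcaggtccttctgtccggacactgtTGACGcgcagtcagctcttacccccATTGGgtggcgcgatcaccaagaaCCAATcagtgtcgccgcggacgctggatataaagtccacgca
H2-D1: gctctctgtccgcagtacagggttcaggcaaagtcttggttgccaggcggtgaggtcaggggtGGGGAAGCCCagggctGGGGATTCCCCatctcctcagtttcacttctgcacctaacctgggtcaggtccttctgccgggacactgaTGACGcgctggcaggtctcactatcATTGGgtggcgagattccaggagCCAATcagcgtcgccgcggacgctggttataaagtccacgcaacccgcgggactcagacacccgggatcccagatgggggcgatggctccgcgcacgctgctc

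The Tap1 window is chr17:34187306-34187605 on the plus strand, B2m is chr2:122147437-122147736 on the plus strand, H2-K1 is chr17:34000298-34000597 on the minus strand and H2-D1 is chr17:35262844-35263143 on the plus strand. Psmb9 starts 226 bases from Tap1 on the opposite strand, so that 275 bases of its window are the complement of those shown for Tap1. The reference is C57BL/6J, while RAW 264.7 comes from a BALB/c mouse with other class I alleles; how well its sequence matches the reference or the probes was not tested. A window was at hand for 8 members. The NF-kB core was in 5 of these (B2m, H2-D1, H2-K1, Psmb9 and Tap1), against 50.8% of all 32851 windows of this length. The Y box core was in 6, against 37.4%, and TGACG was in 5, against 20.8%. The interferon response element core was in the B2m window only, against 3.44% of all windows, and the STAT core in that of Psmb8 only, against 8.3%. These matches are letters in a window and show no binding. The search allowed no mismatch at the fixed letters, so a window without a match may still hold a variant of the site. The NF-kB, Y box and TGACG letters were all present in Tap1 and Psmb9, which fell with TsSP, and in B2m, H2-K1 and H2-D1, which did not pass the test. Psmb10, which fell most, had no match to any of these motifs, Psmb8 had the STAT core alone and Tapbp the Y box core alone. Tap1 and Psmb9 are counted separately although their windows share 275 bases. Whether the letters have a part in the falls was not tested.

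With TsSP, messenger RNA of the immunoproteasome subunits and of the peptide transporter fell, while no change was detected for the class I molecule's chains. In TsSP+LPS against LPS, Psmb8, Psmb9, Psmb10, Tap1 and Tap2 fell, from 1.38-fold for Psmb8 to 1.93-fold for Psmb10. Tapbp was 1.34-fold lower but did not pass the test, and B2m, H2-K1 and H2-D1 differed by less than 0.1 on the log2 scale as deposited. Thus 5 of 9 members fell and none rose, where 7.08% of all genes tested fell, and 13.4% of the 8289 genes above background on all 12 arrays. The median difference over the 9 members was −0.46 on the log2 scale, against 0.019 over all genes. The near-zero differences of the class I chains depend on the scaling. Centred on exon control probe sets, B2m differed by −0.23, H2-K1 by −0.29 and H2-D1 by −0.26, all without a call. The median over all genes was then −0.19. Calls are from limma, a linear model over all genes with an adjusted p under 0.05 (Benjamini-Hochberg). The arrays measure bulk RNA, so fewer cells expressing a gene and less RNA per cell cannot be told apart.

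**Figure D1:**
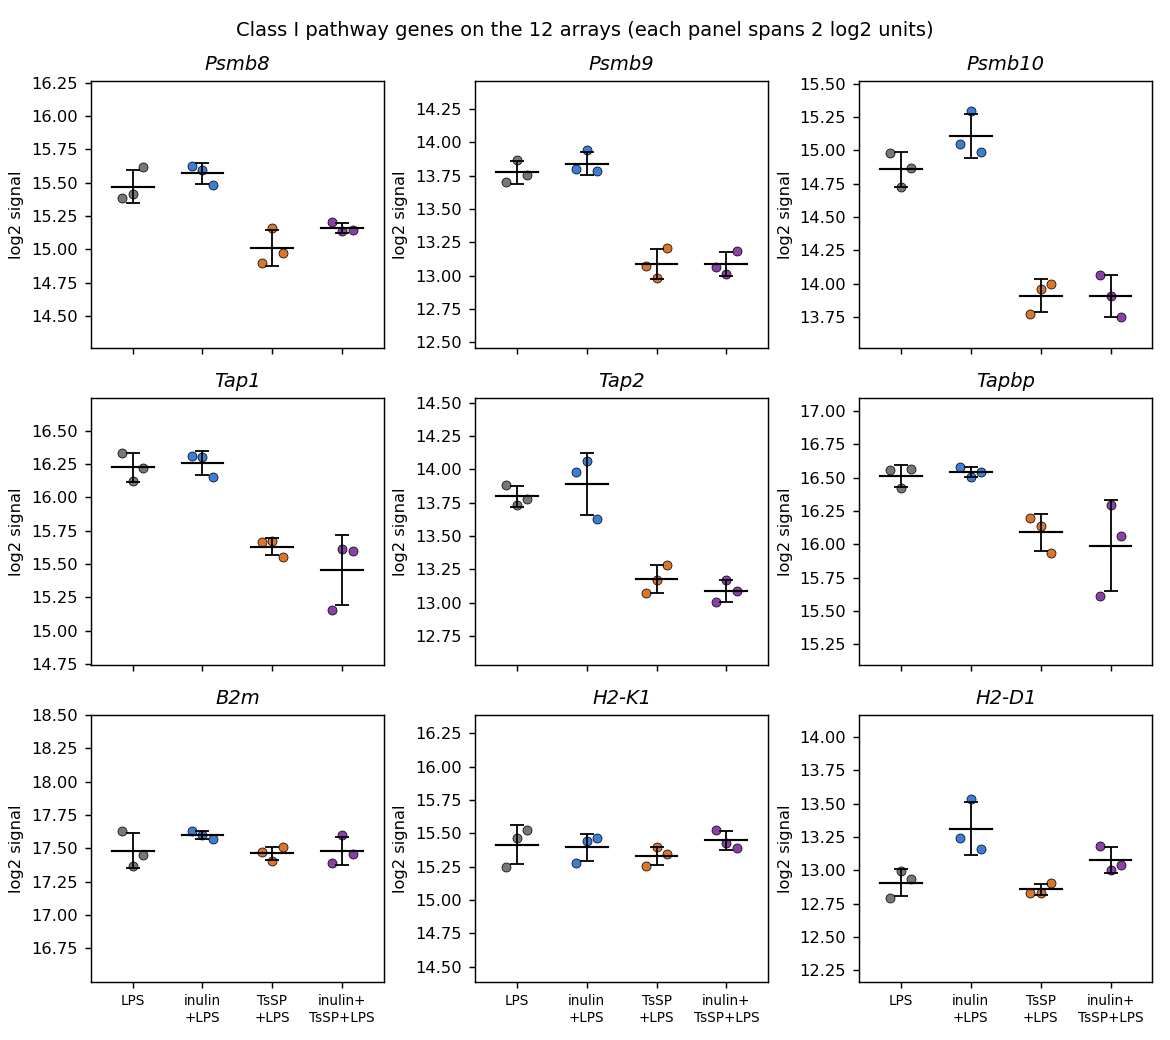
Log2 expression as deposited (vertical axes) of the 9 measured members on the 12 arrays, 1 panel a gene, with 3 points a group and the group mean. The 6 arrays with TsSP lie below the 6 without for Psmb8, Psmb9, Psmb10, Tap1, Tap2 and Tapbp, and the arrays with and without TsSP overlap for B2m, H2-K1 and H2-D1.

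Among the 3 immunoproteasome subunits, Psmb10, the immunoproteasome's trypsin-like subunit, moved most. Its log2 level was 14.98, 14.72 and 14.86 on the LPS arrays and 13.77, 13.96 and 14.001 with TsSP. It was 15.04, 15.29 and 14.98 with inulin, and 14.07, 13.91 and 13.75 with inulin and TsSP. The 6 TsSP arrays were 0.66 or more below every array without it. The fall from LPS was 0.95 (SE 0.14, 95% interval −1.24 to −0.65, limma adjusted p = 0.000483), and from Inulin+LPS it was 1.199 (SE 0.14, adjusted p = 8.74e-05), or 2.30-fold. In order, Inulin+LPS was highest and LPS next, but their difference of 0.25 did not pass the test (adjusted p = 0.880). These groups only just missed overlapping, with LPS replicate 1 at 14.982 and Inulin+LPS replicate 3 at 14.984. An upward order without overlap between these groups was found in 6.51% of all genes. The levels in the TsSP groups overlapped.

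Psmb9 replaces the caspase-like subunit Psmb6. Its log2 level was 13.70, 13.87 and 13.75 with LPS, 13.07, 12.98 and 13.21 with TsSP, 13.80, 13.94 and 13.78 with inulin, and 13.07, 13.01 and 13.18 with both. The levels formed a low set of TsSP arrays and a high set of the rest, 0.50 apart, and within each set the groups overlapped. The fall was 0.69 from LPS (SE 0.11, limma adjusted p = 0.00123) and 0.75 from Inulin+LPS (adjusted p = 0.000695).

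Psmb8, which replaces the chymotrypsin-like subunit, moved least of the 3 immunoproteasome subunits. Its log2 level was 15.38, 15.41 and 15.61 with LPS, 14.90, 15.16 and 14.97 with TsSP, 15.63, 15.60 and 15.48 with inulin, and 15.20, 15.14 and 15.14 with both. Here too the TsSP arrays were lowest, but the gap to the others was 0.18. The fall from LPS was 0.46 (SE 0.12, limma adjusted p = 0.0167), and that from Inulin+LPS was 0.41 (adjusted p = 0.0334). Inulin+TsSP+LPS was 0.31 below LPS, which did not pass (adjusted p = 0.0997). These calls were close to the threshold: the first was lost without LPS replicate 3 (−0.39, adjusted p = 0.0665), without TsSP+LPS replicate 1 (−0.41, 0.0685) or without TsSP+LPS replicate 3 (−0.44, 0.0586). The second was lost without either of Inulin+LPS replicates 1 and 2 or any of the Inulin+TsSP+LPS arrays, with adjusted p from 0.0644 to 0.105.

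For the transporter, Tap1 had log2 levels of 16.33, 16.12 and 16.22 with LPS, 15.66, 15.67 and 15.56 with TsSP, 16.31, 16.31 and 16.16 with inulin, and 15.16, 15.62 and 15.60 with both. Tap2, its partner chain, had 13.88, 13.73 and 13.78 with LPS, 13.07, 13.17 and 13.28 with TsSP, 13.98, 14.06 and 13.63 with inulin, and 13.01, 13.17 and 13.08 with both. In both genes all TsSP arrays lay below all others, and the low point of Tap1 was Inulin+TsSP+LPS replicate 1. With TsSP, Tap1 fell by 0.60 (SE 0.14, limma adjusted p = 0.0108) and Tap2 by 0.62 (SE 0.13, adjusted p = 0.00671) relative to LPS. Relative to Inulin+LPS, Tap1 fell by 0.80 (adjusted p = 0.00186) and Tap2 by 0.80 (adjusted p = 0.00138).

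Tapbp, the peptide loading chaperone tapasin, had log2 levels of 16.55, 16.42 and 16.57 with LPS, 16.20, 16.14 and 15.93 with TsSP, 16.58, 16.51 and 16.54 with inulin, and 15.62, 16.29 and 16.06 with both. The groups with TsSP spread more than those without, most in Inulin+TsSP+LPS (SD 0.34, n = 3), yet they lay 0.13 below all other arrays. The difference from LPS was −0.42 with TsSP (SE 0.16, 95% interval −0.77 to −0.07, limma adjusted p = 0.101) and −0.52 with both (adjusted p = 0.0438), and that from Inulin+LPS to both was −0.55 (adjusted p = 0.0359). The latter 2 calls were narrow. Without Inulin+TsSP+LPS replicate 1, the lowest array, they were −0.34 (adjusted p = 0.142) and −0.36 (0.115), whereas the comparison of TsSP+LPS with LPS then passed (−0.42, 0.0359). Over the 12 fits that each leave out 1 array, only the fit without Inulin+TsSP+LPS replicate 2 kept the call against LPS. In the comparison with Inulin+LPS the call was also lost without TsSP+LPS replicate 2 (adjusted p = 0.0505), without Inulin+TsSP+LPS replicate 3 (0.0674) or without any of the Inulin+LPS arrays (0.0775 to 0.0980).

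No test passed for the chains of the class I molecule itself. B2m had log2 levels of 17.63, 17.37 and 17.45 with LPS and 17.47, 17.41 and 17.51 with TsSP, and of 17.63, 17.60 and 17.57 with inulin and 17.39, 17.60 and 17.45 with both. H2-K1, a classical heavy chain, had 15.25, 15.47 and 15.53 with LPS, 15.26, 15.39 and 15.35 with TsSP, 15.28, 15.44 and 15.47 with inulin, and 15.53, 15.43 and 15.39 with both. The groups of H2-K1 overlapped throughout, and so did those of B2m except that all 3 Inulin+LPS arrays lay above all 3 TsSP+LPS arrays. The difference of TsSP+LPS from LPS was −0.02 for B2m (95% interval −0.27 to 0.22, limma adjusted p = 0.936) and −0.08 for H2-K1 (−0.34 to 0.17, 0.720). Whether the bright B2m signal was saturated was not tested.

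H2-D1, the other classical heavy chain, had log2 levels of 12.80, 12.99 and 12.93 with LPS, 12.83, 12.83 and 12.91 with TsSP, 13.24, 13.53 and 13.16 with inulin, and 13.19, 13.01 and 13.04 with both. Its order thus went with inulin: Inulin+LPS was highest, Inulin+TsSP+LPS next and overlapping with it, and the groups without inulin lowest and overlapping. TsSP+LPS differed from LPS by −0.05 (95% interval −0.33 to 0.23, limma adjusted p = 0.854). On the deposited scale, the intervals of B2m, H2-K1 and H2-D1 do not reach the difference of Psmb10, −0.95. Those of H2-K1 and H2-D1 leave room for falls of up to 0.34 and 0.33. These bounds hold for that scale only: centred on exon controls, the differences themselves were −0.29 and −0.26, and intervals for them are not given here.

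**Figure D2:**
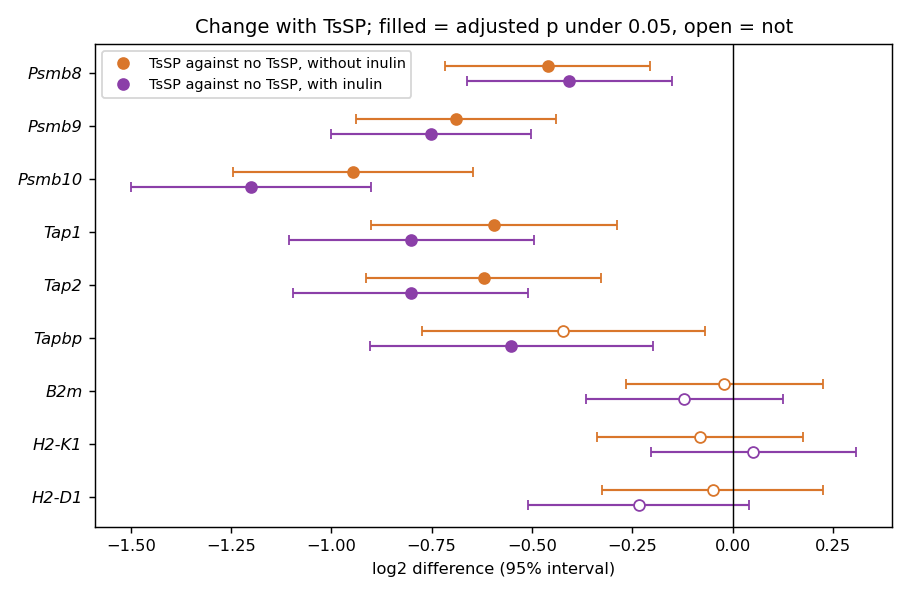
Log2 difference (horizontal axis) of each measured member for TsSP+LPS against LPS and for Inulin+TsSP+LPS against Inulin+LPS, with the 95% interval from limma. Psmb10 lies farthest from 0 in each comparison, and the intervals of B2m, H2-K1 and H2-D1 span 0 in each.

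To set the members beside the class I light chain on the same array, each member's log2 level minus that of B2m was averaged over the 6 arrays with TsSP and the 6 without. B2m was chosen for this after its level was seen to differ little between groups, so the differences are a description with no test. The ratio to B2m differed with TsSP by −0.36 for Psmb8, −0.65 for Psmb9, −1.002 for Psmb10, −0.63 for Tap1, −0.64 for Tap2 and −0.42 for Tapbp. It differed by 0.06 for H2-K1 and by −0.07 for H2-D1. The 6 members with the lower ratio had all 6 arrays with TsSP below all 6 without on the plain log2 scale. Such an order was found in 7.66% of all genes, also counting those below background. Its share among only genes above background, as the members are, was not computed.

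Messenger RNA of each immunoproteasome subunit was set against that of the constitutive subunit it can replace; subunit protein and assembled proteasomes were not measured. Psmb6 and Psmb7 were measured, and Psmb5, the partner of Psmb8, is not analysed here. Neither partner passed the test in TsSP+LPS against LPS: Psmb6 differed by −0.14 (limma adjusted p = 0.466) and Psmb7 by 0.14 (adjusted p = 0.475). The log2 ratio of Psmb10 to Psmb7 was 0.30, 0.08 and 0.20 with LPS, −1.01, −0.96 and −0.71 with TsSP, 0.37, 0.39 and 0.34 with inulin, and −0.67, −0.80 and −1.01 with both. The ratio was thus above 0 on all arrays without TsSP and below 0 on all with it. Because these are different probe sets, 0 does not mark equal abundance, and only the shift between groups is interpretable. That shift was −1.14, or 2.21-fold (exact permutation p = 0.005, the smallest that 400 permutations can give, two-sided, within inulin levels; 2 ratios tested, adjusted p = 0.005).

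The log2 ratio of Psmb9 to Psmb6 was −1.74, −1.79 and −1.80 with LPS, −2.31, −2.40 and −2.25 with TsSP, −1.79, −1.76 and −1.76 with inulin, and −2.44, −2.32 and −2.31 with both. It shifted by −0.57 with TsSP, or 1.48-fold (exact permutation p = 0.005, adjusted p = 0.005), and the groups with and without TsSP did not overlap.

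**Figure D3:**
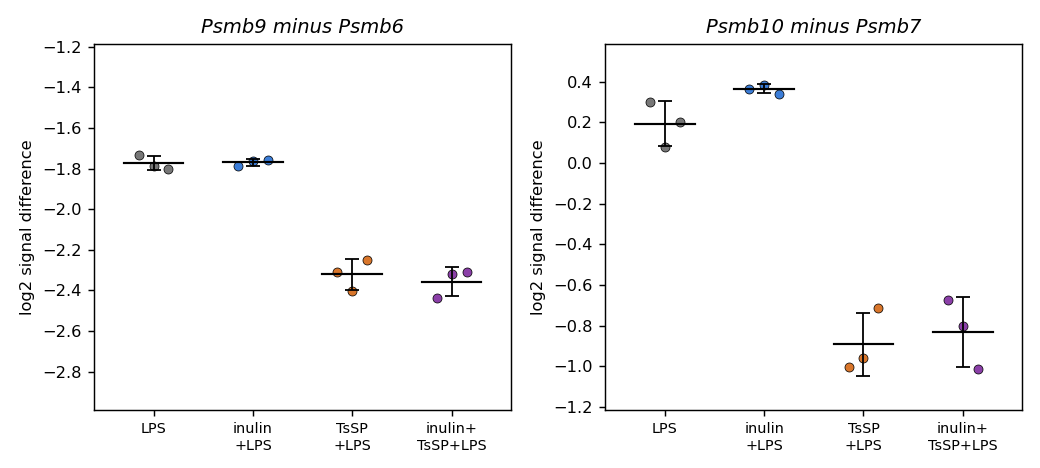
Log2 ratio of Psmb9 to Psmb6 and of Psmb10 to Psmb7 (vertical axes) on each of the 12 arrays by group, with group means. The 6 TsSP arrays range from −2.44 to −2.25 for the first ratio and from −1.01 to −0.67 for the second, below all arrays without TsSP in both.

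Inulin alone gave no call in these genes. In Inulin+LPS against LPS, 0 of 9 members passed the limma test, as did 0% of all genes (1143 of 19505 had an unadjusted p under 0.05). H2-D1 differed most, by 0.41 (SE 0.13, 95% interval 0.13 to 0.68, limma unadjusted p = 0.00784, adjusted p = 0.660), with all 3 inulin arrays above all 3 LPS arrays. Such an order upwards was found in 6.51% of all genes. Psmb10 came next (0.25) and the other 7 members differed by −0.02 to 0.12.

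Adding inulin to TsSP and LPS likewise gave 0 of 9 member calls and 0% of all genes (971 with an unadjusted p under 0.05). The members' differences ran from −0.17 for Tap1 to 0.22 for H2-D1, around a median of 0.0005. The interaction term asks whether the response to TsSP differed with inulin. It passed limma's threshold for 0 of 9 members and for 0% of all genes (1089 with an unadjusted p under 0.05). It was largest in size for Psmb10, at −0.25 (SE 0.19, 95% interval −0.68 to 0.17, adjusted p = 0.963).

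With inulin present in both groups, 6 of 9 members fell with TsSP (Psmb8, Psmb9, Psmb10, Tap1, Tap2 and Tapbp), where 7.99% of all genes fell, and the members' median difference was −0.55. For Inulin+TsSP+LPS against LPS, 5 of 9 fell (Psmb9 by 0.69, Psmb10 by 0.95, Tap1 by 0.77, Tap2 by 0.71 and Tapbp by 0.52), where 7.3% of all genes fell, with a median of −0.52. The last comparison shares its LPS arrays with TsSP+LPS against LPS, so the similar values are not independent of each other. Both shares are over all genes, also those below background. In fits on only the 9022 genes above background on every array of a group, 1852 were lower with TsSP on inulin. With both against LPS, 1672 of these genes were lower. Leaving out each array in turn gave 4 to 6, 4 to 6 and 4 to 5 member calls in the comparisons with TsSP against LPS, with TsSP on inulin and with both against LPS. Psmb9, Psmb10, Tap1 and Tap2 were called in every one of these fits.

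The rest of the pathway was read from lists of genes with known roles. In TsSP+LPS against LPS, 16 of its 87 measured genes rose and 16 fell, where 11% and 7.08% of all genes did so, and their median difference was −0.01. This split depends on the scaling: centred on exon control probe sets, 5 rose and 24 fell. Of the 87, 73 were above background on all 12 arrays, and 13.4% of all genes so expressed fell. In the fit on only the 9022 genes above background on every array of a group, 2617 rose and 1565 fell. Of the pathway genes, 21 rose and 17 fell in that fit. The same shares apply to the counts by list below. The PA28 activator caps the proteasome and is made with the immunoproteasome. Its Psme2 chain had log2 levels of 14.72, 14.93 and 14.91 with LPS and 14.31, 14.11 and 14.19 with TsSP, a fall of 0.65 without overlap (SE 0.12, limma adjusted p = 0.00205). Its other chain, Psme1, differed by −0.19 (adjusted p = 0.263), and fell by 0.37 when TsSP was added to inulin (adjusted p = 0.0302). Psme2 was the only one of 8 activator and assembly genes to pass against LPS on the deposited scale (centred on exon controls, Psme1 passed too), and the assembly factor Pomp differed by −0.04 (adjusted p = 0.888). Of 11 further core subunits, which both proteasome types share, none fell and 2 rose, Psma7 by 0.49 (adjusted p = 0.00594) and Psma6 by 0.34 (adjusted p = 0.0454).

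Genes for trimming and loading of peptides went both ways, with 2 of 14 lower and 6 higher. The aminopeptidase Erap1, which trims peptides in the endoplasmic reticulum, had log2 levels of 13.07, 13.36 and 13.26 with LPS and 12.45, 12.44 and 12.47 with TsSP, a fall of 0.78 (SE 0.12, limma adjusted p = 0.000614). Tapbpl, the tapasin-related peptide editor, fell by 0.69 (SE 0.12, adjusted p = 0.00156). Those that rose are general factors of the endoplasmic reticulum for folding, quality control, protein entry and signal peptide removal. They were Uggt1 by 0.84, Spcs1 by 0.53, Pdia3 by 0.52, Calr by 0.49, Sec61a1 by 0.37 and Canx by 0.33. The remaining 6 genes of the list did not pass. Among them were 2 further endoplasmic reticulum genes, Hspa5 (mean 17.77 with LPS, 17.94 with TsSP) and Ganab (12.53 and 12.68). Uggt1 alone of the 6 that rose kept its call when arrays were centred on the exon control probe sets (0.63, limma adjusted p = 0.00968). Calr then had 0.28 (0.107), Pdia3 0.31 (0.0795), Spcs1 0.32 (0.126), Sec61a1 0.16 (0.363) and Canx 0.12 (0.458). Psma7 and Psma6 lost theirs too (0.28, adjusted p = 0.104, and 0.14, 0.507). Canx, Psma6 and Sec61a1 were close to the threshold throughout: of the 12 fits that leave out 1 array they passed in 0, 2 and 4.

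Of 15 other class I and class I-like heavy chains, 4 fell and 1 rose, and centred on exon controls 6 fell and 1 rose. Of the 15, 11 were above background on all 12 arrays. H2-T24 fell by 1.29 (SE 0.23, limma adjusted p = 0.00219), H2-M3, which presents formylated peptides, by 0.83 (SE 0.12), H2-T23, the Qa-1 chain, by 0.53, and H2-Q4 by 0.40. Mr1, which presents vitamin metabolites to mucosal T cells, rose by 1.13 (SE 0.25, adjusted p = 0.00778). Its log2 level was low, at 7.27, 7.28 and 6.33 with LPS and 8.10, 7.96 and 8.21 with TsSP, so that its groups did not overlap although LPS replicate 3 stood apart. The H2-Q4 call was lost without TsSP+LPS replicate 2 (−0.39, adjusted p = 0.0506) or replicate 3 (−0.38, 0.0549). Class I heavy chain genes, among them H2-K1, H2-D1 and the H2-Q and H2-T genes, are related in sequence, some of them closely. Signal may be shared among them, which was not tested, so their values are uncertain.

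Among 16 regulators of class I transcription, 5 fell and 3 rose, and centred on exon controls 9 fell and 2 rose. Irf1, an interferon-induced activator of Psmb9, Tap1 and other class I genes, had log2 levels of 14.17, 14.21 and 14.03 with LPS and 12.00, 12.00 and 12.30 with TsSP. It had 14.29, 14.30 and 14.004 with inulin and 11.78, 12.02 and 12.01 with both. From LPS to TsSP+LPS it fell by 2.04, or 4.11-fold (SE 0.14, limma adjusted p = 1.71e-06), more than any member. Irf2 fell by 1.16, Rfx5, which binds the X box, by 0.85, Stat2 by 0.74 and Nfkb2 by 0.70. Irf8, a macrophage lineage factor, rose by 1.88 (SE 0.14), as did the X box complex subunits Rfxap (0.99) and Rfxank (0.72). Rfxank kept its call in 6 of 21 alternative analyses. Nfkb1 and Nlrc5 are not analysed here.

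Of 10 interferon receptor, kinase and feedback genes, 4 fell and 3 rose, and centred on exon controls 4 fell and 1 rose. Socs1, the interferon-induced brake on JAK kinases, fell by 1.80 (SE 0.24, limma adjusted p = 0.000272), Usp18, which restrains the type I interferon receptor, by 0.95, the kinase Tyk2 by 0.72 and Jak2 by 0.45. The receptor chains Ifnar1 and Ifngr2 rose by 0.95 and 0.50, and Socs3 by 0.37. Jak2 kept its call in 14 of 21 alternatives and Socs3 in 8. Ifngr2 lost its call without TsSP+LPS replicate 2 (0.47, adjusted p = 0.0505) and when centred on exon controls (0.29, 0.148). Of 11 class II pathway genes only Ifi30, a lysosomal reductase, passed, rising by 0.47, a call lost without TsSP+LPS replicate 2 (0.44, adjusted p = 0.0506) and when centred on exon controls (0.26, 0.150), where Ctss fell instead. Only Ctss and Ifi30 of these 11 were above background on all 12 arrays.

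**Figure D4:**
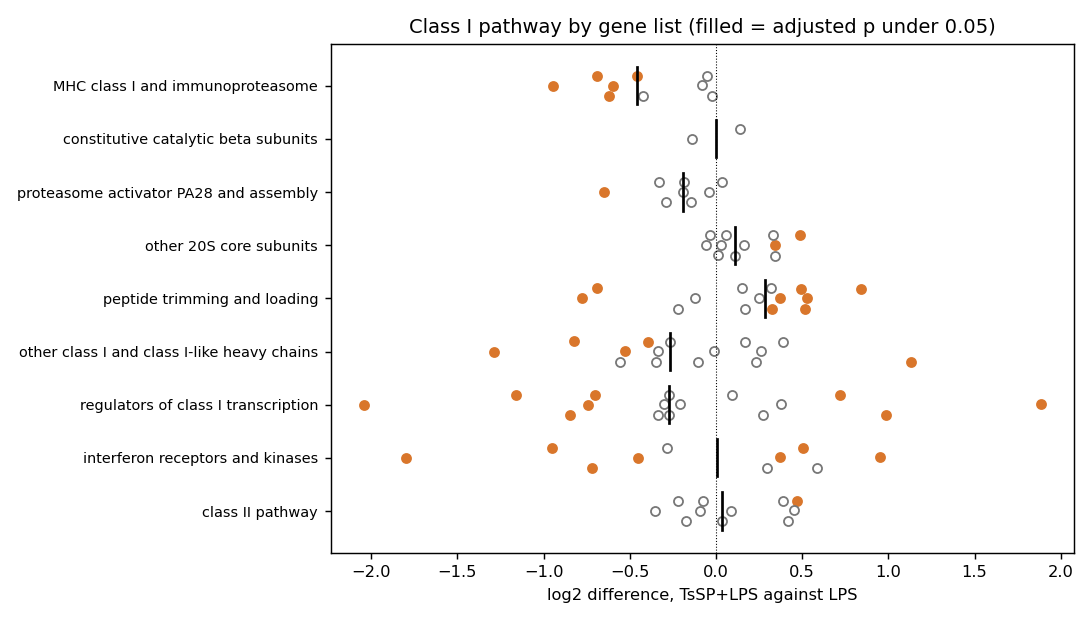
Log2 difference of TsSP+LPS from LPS (horizontal axis) for each measured gene of the class I genes and of each pathway list (rows), with 1 point a gene and filled points for limma calls. Of the 9 members 5 are called lower and none higher, while the regulators range from −2.04 for Irf1 to 1.88 for Irf8.

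To find genes with the most similar pattern, each gene's 12 values were taken relative to its LPS mean and set against the median over the 9 members. Of 8057 candidates the nearest were Nrp2 (root mean square distance 0.077 log2 units over 12 arrays), Tlr2 (0.078), Nob1 (0.081), Tor3a (0.086), Plk3 (0.088) and Wars (0.089), where the median candidate was at 0.486. Among the members, Tapbp was nearest to this median (0.108) and H2-D1 farthest (0.454). Psmb10, which fell most, was at 0.366, about as far as H2-K1 (0.367) and B2m (0.348). Every member was thus farther from the median than the nearest genes named, which resemble the median rather than each member.

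On each array, 8771 to 9059 genes exceeded background. Exon control probe sets had an array median of 11.001 to 11.21 without TsSP and 11.22 to 11.36 with it, and centring on it moved the median difference of all genes between TsSP+LPS and LPS from 0.02 to −0.19. Calls were then 1219 higher and 2609 lower, where the deposited scale gave 2144 and 1381, and quantile normalization 1757 and 1574. On the exon control scale 6 of 9 members fell, with Tapbp added, and B2m, H2-K1 and H2-D1 were not called. All 11 measured macrophage markers were above background on all arrays, and their summed level was 19.19 to 19.26 without TsSP and 19.38 to 19.41 with it, in log2 units. With TsSP, Itgam, Lyz2 and Tyrobp rose by 0.74, 0.44 and 0.58 and Adgre1 fell by 1.05. All 9 lymphocyte, 5 of 6 dendritic cell and 6 of 8 fibroblast and epithelial markers were below background on every array. The part of the exon control shift and of the macrophage markers in the members' falls was not tested.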

How the data were processed

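RNA of 12 RAW 264.7 samples was measured on 1-colour Affymetrix arrays, labelled with biotin per the labels' protocols. The authors deposited log2 values for every probe set; the scale is inferred from their range (1.32 to 18.9), and how they were background-corrected and normalized is not stated in the sources used here. Of 28846 probe sets 19572 had 1 gene symbol, none had several, and all 19572 matched a RefSeq gene number. The probe set with the highest mean stood for each of 19505 genes. Background was the brightest of 23 background probes on each array. One limma model (limma 3.58.1, R 4.3.3) with 4 group means over 12 arrays gave 6 contrasts, each Benjamini-Hochberg adjusted over all genes, and was tested on simulated data. The number of arrays limits the precision. Log ratios of paired genes were compared by exact permutation. Named genes are all members, the 4 genes of smallest p in each list, or all of a counted set that has at most 5, and the 6 nearest patterns; the 6 loading genes that rose, and genes named for not passing, were picked after their values were seen. Normalization, scaling, filter, variance model, samples, blocking, probe set choice and left-out arrays were varied. Members and lists were chosen with earlier results of these data known. Psmb8 against Psmb5 was planned but not computed, as Psmb5 was not used here.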

Additional observations from a re-analysis of the deposited data

How the results depend on the processing

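Each limma result was repeated in 21 alternatives: 12 that left out 1 array each and 9 that changed the scaling, filter, variance model, samples, block or probe set choice. Psmb9, Psmb10, Tap1 and Tap2 kept their direction and call in all 21 in each comparison that adds TsSP, and B2m, H2-K1 and H2-D1 were called in none. Psmb8 was called in 17, 4 and 13 and Tapbp in 4, 8 and 12 of the 21, for TsSP+LPS against LPS, Inulin+TsSP+LPS against LPS and Inulin+TsSP+LPS against Inulin+LPS. No call turned its direction. With only the groups compared in the fit, 22 pathway genes were called in Inulin+TsSP+LPS against LPS, where the fit on all groups called 35. The labels do not say whether same-numbered arrays belong together. In their deviations from the group means, same-numbered arrays correlated at −0.094 to 0.105 and others at −0.127 to 0.112. Among the 3 arrays of another group, an array correlated best with its own number in 6 of 36 cases. With means of 3 arrays, such correlations cannot exclude a pairing. With the replicate block, calls over all genes for TsSP+LPS against LPS went from 3525 to 3203, Psmb8 in Inulin+TsSP+LPS against Inulin+LPS had adjusted p = 0.0650, and Tapbp had 0.0741 against LPS and 0.0636 against Inulin+LPS. Centred on exon controls, Inulin+TsSP+LPS against LPS had 1138 higher and 2592 lower calls (2010 and 1423 as deposited), and against Inulin+LPS 1188 and 2021 (1689 and 1559). Leaving out each array in turn kept the shift of Psmb9 to Psmb6 within −0.58 to −0.55 and that of Psmb10 to Psmb7 within −1.19 to −1.10.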
